A study of Mus musculus with 15 samples.

Results

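The KDEL receptors are the 3 mouse genes Kdelr1, Kdelr2 and Kdelr3, taken here as the transcript clusters (the gene-level features of the array) annotated to those symbols. Kdelr1 (Gene ID 68137) and Kdelr3 (Gene ID 105785) each had 1 cluster, so that 2 of the 3 genes were measured, among 19938 genes with a cluster of their own and 23410 clusters tested. Kdelr2 was not analysed here. The family was chosen by the log2 signals of Kdelr3 and Kdelr1 in the genotype groups of these same arrays, so their values are given as a description with no test, while the genes of their pathway were tested.

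KDEL receptors are multipass membrane proteins that cycle between the Golgi and the endoplasmic reticulum (ER). They bind the C-terminal Lys-Asp-Glu-Leu (KDEL) signal of soluble ER proteins that have escaped, such as the chaperones BiP, GRP94 and calreticulin, and carry them back in vesicles coated with COPI. Binding depends on pH and is stronger in the Golgi than in the ER, and the occupied receptors also signal through G proteins and Src-family kinases. Erythroid precursors of the fetal liver keep a working secretory pathway while they mature, and lose the ER late in maturation.

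The arrays were hybridised with RNA of TER119+ cells, maturing erythroid cells purified on magnetic beads, from E13.5 fetal liver of FVB/NJ mice. Wild-type mice gave 4 arrays and mice labelled Klf8gt/gt, with a gene trap in Klf8, gave 4. Klf3-/- mice gave 3, and mice labelled Klf3-/- Klf8gt/gt (double mutant) gave 4. KLF3 and KLF8 are related zinc finger proteins that bind CACCC-type sequences and are known mainly as repressors. The labels do not say how much function the trap leaves, nor whether arrays come from different embryos, so p-values measure the spread between these samples. The design compared each mutant genotype with wild type and the double mutant with each single mutant, which gives the change of Kdelr3 and Kdelr1 with either genotype alone and with both.

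Values are log2 signals as deposited, and array medians ran from 6.28 to 6.41. The Klf3 cluster was not lower in the arrays labelled Klf3-/-, where it averaged 11.32 ± 0.14 (SD, n = 3) against 10.27 ± 0.17 (n = 4) in wild type, a rise of 1.04 (limma, Benjamini-Hochberg adjusted p = 6.37e-04). Klf8 averaged 5.36 in wild type, 5.39 in the Klf8 trap, 8.71 in the arrays labelled Klf3 null and 7.29 in the double mutant. The labels do not say whether either cluster lies inside the deleted or trapped segment, so neither signal checks a label, and each mutant group below is named by its label. All 9 measured erythroid markers were above the array medians in every group. In the double mutant against wild type, however, their median difference was -0.41 against -0.02 over all clusters. Of the 9, 2 passed the test, beside 3.3% of all clusters. Klf1, the erythroid activator of the family, fell by 0.41 (adjusted p = 0.0487, limma) and Hemgn by 0.50 (adjusted p = 0.0234). The others ran from -0.92 for Tspo2 to -0.10 for Slc4a1. At an unadjusted p below 0.05, 6 of the 9 were lower, beside 17.9% of all clusters in either direction. In the labelled Klf3 null their median was -0.14 against -0.01 over all clusters, and none was called, beside 0.585% of all clusters. Hepatocyte and macrophage genes were also bright, with list means of 11.03 to 12.77 and of 7.81 to 9.86 over the arrays, so other liver cells contributed RNA. In such bulk samples, fewer cells of a type and less RNA per cell cannot be told apart. Expression of sex-linked genes put all 4 wild-type arrays as male, while the Klf8 trap had 2 male and 2 female arrays, the labelled Klf3 null 1 male and 2 female, and the double mutant 2 of each.

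The promoters of the receptors are shown because KLF sites and ER-stress sites can be read from them directly. The RefSeq windows (GRCm38.p6, plus strand) are the 250 bases before the gene start at chr15:79516158-79516407 for Kdelr3, chr7:45872590-45872839 for Kdelr1 and, for comparison with the best known client, chr2:34771840-34772089 for Hspa5, which encodes BiP. Capitals mark matches, on either strand, to the CACCC box, the KLF consensus CCNCNCCC, the unfolded protein response element TGACGTGG or the ER stress element (CCAAT and CCACG with 9 bases of any kind between them).
Kdelr3: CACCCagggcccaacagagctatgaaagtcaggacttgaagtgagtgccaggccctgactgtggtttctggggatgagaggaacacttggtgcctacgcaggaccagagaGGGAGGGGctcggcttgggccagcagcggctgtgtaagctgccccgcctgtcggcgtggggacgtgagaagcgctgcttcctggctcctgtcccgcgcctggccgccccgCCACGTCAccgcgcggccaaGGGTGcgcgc
Kdelr1: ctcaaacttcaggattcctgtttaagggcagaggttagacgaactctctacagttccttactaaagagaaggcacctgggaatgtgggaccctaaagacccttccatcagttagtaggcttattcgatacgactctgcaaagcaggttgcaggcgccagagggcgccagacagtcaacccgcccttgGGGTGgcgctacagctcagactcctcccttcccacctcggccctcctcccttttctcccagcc
Hspa5: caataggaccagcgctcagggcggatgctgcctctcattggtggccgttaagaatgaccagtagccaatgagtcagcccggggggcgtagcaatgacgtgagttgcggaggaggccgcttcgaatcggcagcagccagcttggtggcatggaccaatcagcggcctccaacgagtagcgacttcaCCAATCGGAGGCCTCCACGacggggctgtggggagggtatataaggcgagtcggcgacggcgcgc
The Kdelr3 window held 2 CACCC boxes, at 250 to 246 bases upstream on the same strand and at 10 to 6 on the opposite strand. It also held 1 KLF consensus, at 140 to 133 bases upstream, and 1 unfolded protein response element, at 30 to 23, both on the opposite strand. Kdelr1 had a single match, a CACCC box at 63 to 59 bases upstream on the opposite strand. Hspa5 had no KLF-type match and 1 ER stress element, at 65 to 47 bases upstream. Of 32851 mouse promoter windows of this length, 52.0% held a CACCC box and 45.9% the KLF consensus, so these matches are common, and the 2 motifs can overlap. The unfolded protein response element was in 0.563% and the ER stress element in 0.113% of windows. GC content was 67.2% for Kdelr3, 55.2% for Kdelr1 and 62.4% for Hspa5. A match describes the letters in the window, and binding was not measured.

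Kdelr3, the third receptor of the family, was below the array medians wherever the label had Klf3 intact and well above them wherever it had Klf3 deleted. Its log2 signal was 5.68, 5.50, 5.77 and 5.50 in the 4 wild-type arrays and 5.67, 6.02, 5.77 and 5.99 in the 4 Klf8-trap arrays. These 8 values overlapped between the genotypes and lay below the median of any array, though above the lower quartiles of 4.92 to 5.01. In the arrays labelled Klf3 null Kdelr3 read 8.33, 8.25 and 7.86. In the double mutant it read 9.54, 9.21, 8.94 and 8.57. No array of either group overlapped wild type, and the lowest double-mutant array was above the highest array labelled Klf3 null.

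By group, Kdelr3 averaged 5.61 ± 0.14 (SD, n = 4) in wild type and 5.86 ± 0.17 (n = 4) in the Klf8 trap. It averaged 8.14 ± 0.25 (n = 3) in the labelled Klf3 null and 9.07 ± 0.41 (n = 4) in the double mutant. The log2 difference from wild type was 2.53 ± 0.18 (SE) in the labelled Klf3 null, the seventh highest of the 23410 clusters. It was 3.46 ± 0.17 in the double mutant, where 3 clusters ranked above it, and 0.25 ± 0.17 in the Klf8 trap. The double mutant exceeded the labelled Klf3 null by 0.92 ± 0.18 and the Klf8 trap by 3.20 ± 0.17. The difference between arrays with and without the Klf8 trap was thus larger by 0.67 ± 0.25 where the label had Klf3 deleted than where it had Klf3 intact. Both Klf3-intact groups lie below the array medians, and the part of dim signal or of cell mix in this value was not tested. No fold is given, because the lower groups lie in the dim range of the array, where differences of log2 signal understate differences of RNA.

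**Figure D1:**
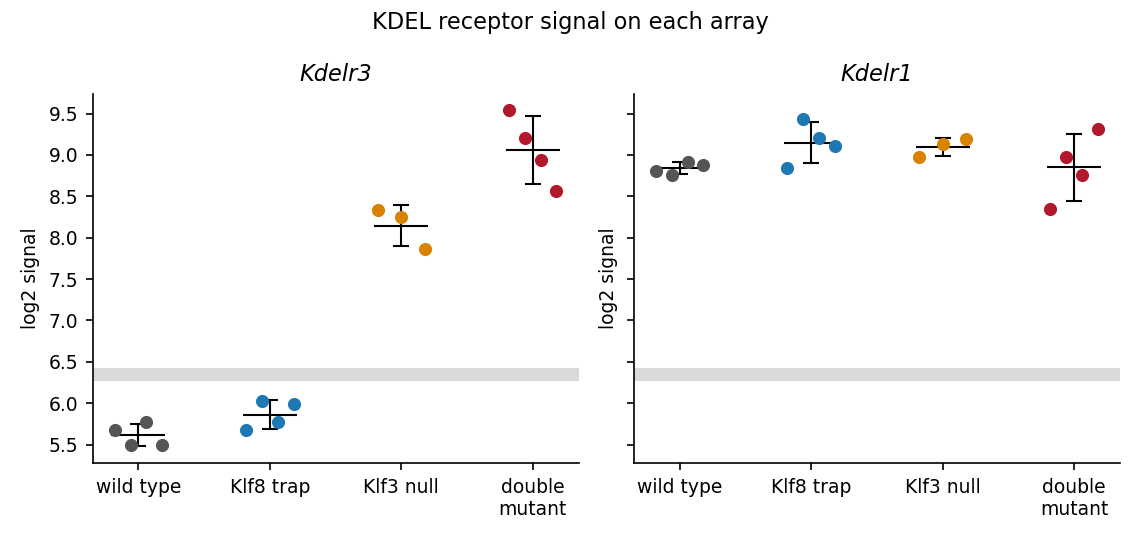
Log2 signal of Kdelr3 and Kdelr1 on each array (points) by genotype, with the group mean and SD (bars) and the range of the array medians (grey band, 6.28 to 6.41). Kdelr3 lies at 5.50 to 6.02 on the 8 arrays with Klf3 intact by label and at 7.86 to 9.54 on the 7 without, while Kdelr1 lies at 8.35 to 9.44 on all arrays.

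Kdelr1, the receptor regarded as the main form in many cells, was well above the array medians in every genotype and varied much less. It read 8.81, 8.76, 8.92 and 8.88 in wild type and 8.84, 9.44, 9.21 and 9.11 in the Klf8 trap. It read 8.98, 9.13 and 9.19 in the labelled Klf3 null and 8.35, 8.97, 8.76 and 9.32 in the double mutant. The double mutant held both the lowest value and one of the highest, so its arrays spanned the whole wild-type range. The labelled Klf3-null arrays lay just above wild type without overlap, by a gap of 0.07.

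Kdelr1 averaged 8.84 ± 0.07 in wild type, 9.15 ± 0.25 in the Klf8 trap, 9.10 ± 0.11 in the labelled Klf3 null and 8.85 ± 0.40 in the double mutant. Its differences from wild type were 0.26 ± 0.18 (SE) in the labelled Klf3 null, 0.31 ± 0.16 in the Klf8 trap and 0.01 ± 0.16 in the double mutant. The double mutant was -0.25 ± 0.18 from the labelled Klf3 null and -0.30 ± 0.16 from the Klf8 trap. The interaction of both genotypes was -0.55 ± 0.24, the opposite sign to that of Kdelr3. By size of its difference between labelled Klf3-null and wild-type arrays, Kdelr1 ranked 2783 of 23410 clusters. The signal of Kdelr1 is not set against that of Kdelr3, since brightness depends on the probes of each cluster.

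Within the double mutant, Kdelr1 had the same array order as the macrophage markers, while Kdelr3 was highest where those markers were lowest. The part of other cell types in these values was not tested. Double-mutant replicate 1 had the highest Kdelr3 (9.54), the lowest Kdelr1 (8.35), the lowest mean of 15 macrophage markers (7.81) and the lowest mean of 11 hepatocyte markers (11.03). Double-mutant replicate 4 had the lowest Kdelr3 of its group (8.57), the highest Kdelr1 (9.32) and the highest macrophage mean (9.39). The macrophage mean was 9.56 to 9.86 in wild type, 9.10 to 9.63 in the Klf8 trap, 8.98 to 9.47 in the labelled Klf3 null and 7.81 to 9.39 in the double mutant. In the double mutant against wild type 7 of the 15 macrophage markers fell (limma, adjusted p below 0.05), beside 3.3% of all clusters called in either direction. The list median was -1.17, against -0.02 over all clusters. The erythroid mean was 11.99 to 12.41 in wild type and 11.60 to 12.25 in the double mutant, where replicate 1 was the highest. Every array labelled Klf3 null or double mutant had a macrophage mean below that of every wild-type array. Macrophage mean and Kdelr3 thus both separated these groups from wild type, so genotype and macrophage level cannot be told apart in those comparisons. The ranges of the macrophage mean in the Klf8 trap and the labelled Klf3 null overlapped, and those of Kdelr3 did not. Replicate 3 of the labelled Klf3 null had the lowest macrophage mean of its group (8.98) and also the lowest Kdelr3 (7.86). With the macrophage mean as a covariate, Kdelr3 was 2.42 above wild type in the labelled Klf3 null and 3.13 in the double mutant, and Kdelr1 was 0.43 and 0.50 above. With that covariate the differences of Kdelr1 between the double mutant and the single mutants turned from negative to positive, at 0.07 against the labelled Klf3 null and 0.05 against the Klf8 trap, while those of Kdelr3 were 0.71 and 2.98. Kdelr3 on the male arrays alone was 7.86 in the labelled Klf3 null and 9.54 and 9.21 in the double mutant, against 5.50 to 5.77 on the wild-type arrays, which are all male.

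**Figure D2:**
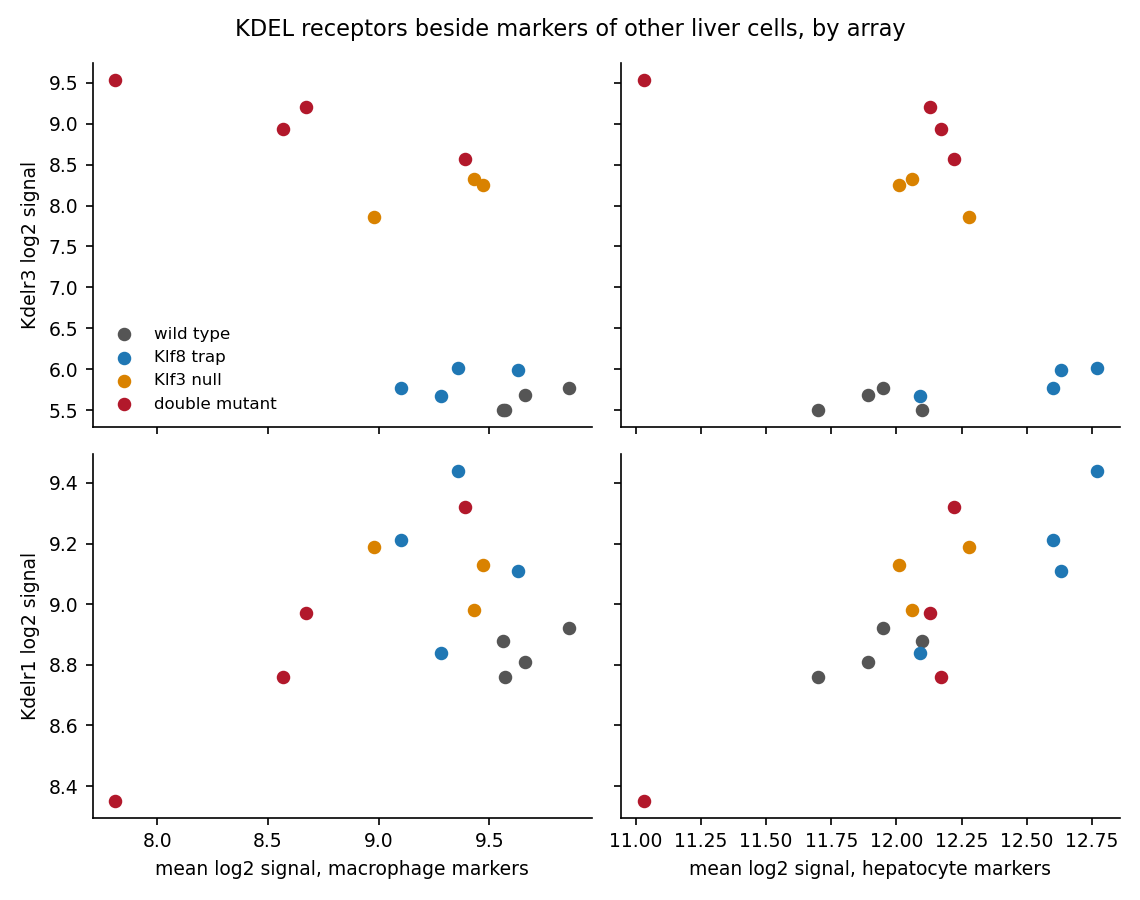
Log2 signal of Kdelr3 and Kdelr1 on each array against the mean log2 signal of the macrophage and hepatocyte markers of that array, by genotype. The 7 arrays with Klf3 deleted by label have Kdelr3 at 7.86 or more and the 8 others at 6.02 or less. Hepatocyte levels of the 7 overlap those of the 8 others. Macrophage levels of the 7 overlap those of the Klf8 trap and all lie below those of wild type (9.56 to 9.86). Double-mutant replicate 1 stands at the low end of both marker lists (7.81 and 11.03).

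The genes whose values ran closest to those of Kdelr3 were Supt3, C1qtnf12, Lgals3, Prune2, S100a10, Cttnbp2nl, Dkkl1 and Dffb. Likeness was the root mean square difference between 2 genes over the 15 arrays, after subtracting the wild-type mean of each, among 19938 genes. It was 0.29 for Supt3, 0.39 for C1qtnf12, 0.52 for Lgals3 and Prune2, 0.55 for S100a10, 0.60 for Cttnbp2nl, 0.61 for Dkkl1 and 0.62 for Dffb. The median over all clusters was 2.15, and Kdelr1, at 2.09, was about as far from Kdelr3 as a typical gene. These genes were picked for their likeness, so their differences are a description.

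Supt3, which encodes a subunit of the SAGA transcription coactivator, averaged 7.80 ± 0.12 in wild type, 7.92 ± 0.09 in the Klf8 trap, 10.35 ± 0.21 in the labelled Klf3 null and 10.98 ± 0.86 in the double mutant. Its double-mutant arrays read 11.84, 11.30, 10.98 and 9.81, in the same order as those of Kdelr3. This order was not particular to Supt3, as C1qtnf12, Lgals3, Prune2, Cttnbp2nl, Dffb and the Klf3 cluster also had it. S100a10 departed from it, and Dkkl1 read 8.32 in both replicates 2 and 3. Lgals3, which encodes the lectin galectin-3, was 0.61 ± 0.25 (SE) higher in the double mutant than in the labelled Klf3 null, and Cttnbp2nl was 0.62 ± 0.26 higher. C1qtnf12, which encodes the secreted protein adipolin, differed from wild type by 3.29 ± 0.17 in the labelled Klf3 null and by 3.30 ± 0.16 in the double mutant. S100a10, the annexin A2 partner, differed by 2.33 ± 0.18 and 2.51 ± 0.17. Kdelr3 therefore had the largest step between the labelled Klf3 null and the double mutant of these 9 genes, 0.92, while the steps of the others ran from 0.01 to 0.63. Among all 23410 clusters its step ranked 49 by rise, so larger steps occurred elsewhere. Of the genes picked for likeness, 6 have a promoter window, and 5 of these held a CACCC box, beside 52.0% of all windows. The KLF consensus was in 6, beside 45.9% of all windows. The unfolded protein response element seen in Kdelr3 was in 0, beside 0.563%.

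**Figure D3:**
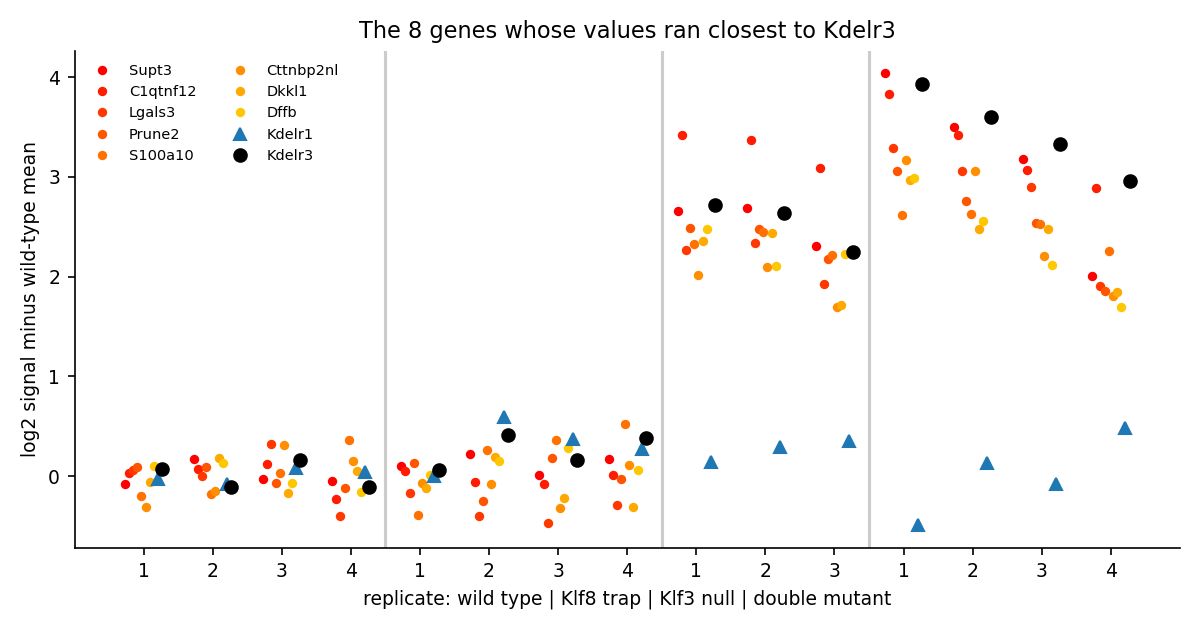
Log2 signal minus the wild-type mean of the same gene, on each of the 15 arrays, for Kdelr3 (black circles), Kdelr1 (blue triangles) and the 8 genes closest to Kdelr3 (orange to red points). All 9 lie near 0 in wild type and the Klf8 trap and above 1 in both groups labelled Klf3 deleted, while Kdelr1 stays below 1 throughout.

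The genes around Kdelr3 did not pass the test in any comparison. Its 5 measured neighbours on one side were Pla2g6, Maff, Tmem184b, Csnk1e and Kcnj4, and on the other Ddx17, Dmc1, Fam227a, Cby1 and Tomm22. Their differences from wild type ran from -0.15 to 0.29 in the labelled Klf3 null, with 0 of 10 called at an adjusted p below 0.05 (limma) against 0.585% of all clusters, and 0 at an unadjusted p below 0.05 against 7.83%. In the double mutant they ran from -0.14 to 0.37, with 0 of 10 called against 3.3% of all clusters and 3 at an unadjusted p below 0.05 against 17.9%. Ddx17, an RNA helicase gene whose annotated end overlaps that of Kdelr3, was 0.13 and 0.29 above wild type in these groups (adjusted p = 0.80 and 0.127, limma). None of the 10 neighbours of Kdelr1 was called in either comparison, and their differences ran from -0.24 to 0.32 and from -0.19 to 0.37.
Of the 10 neighbours of the Kdelr2 gene, each tested in every comparison, 1 passed. In the comparisons where it did, double mutant against wild type and against the Klf8 trap, 3.3% and 3.35% of all clusters were called. E130309D02Rik, known by its clone name, was 0.43 above wild type in the double mutant (adjusted p = 0.0314) and 0.51 above the Klf8 trap (adjusted p = 0.0133). The first of these calls held in 13 of 24 alternatives, where its adjusted p ran from 0.00329 to 0.272, and the second in 23 of 24.

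**Figure D4:**
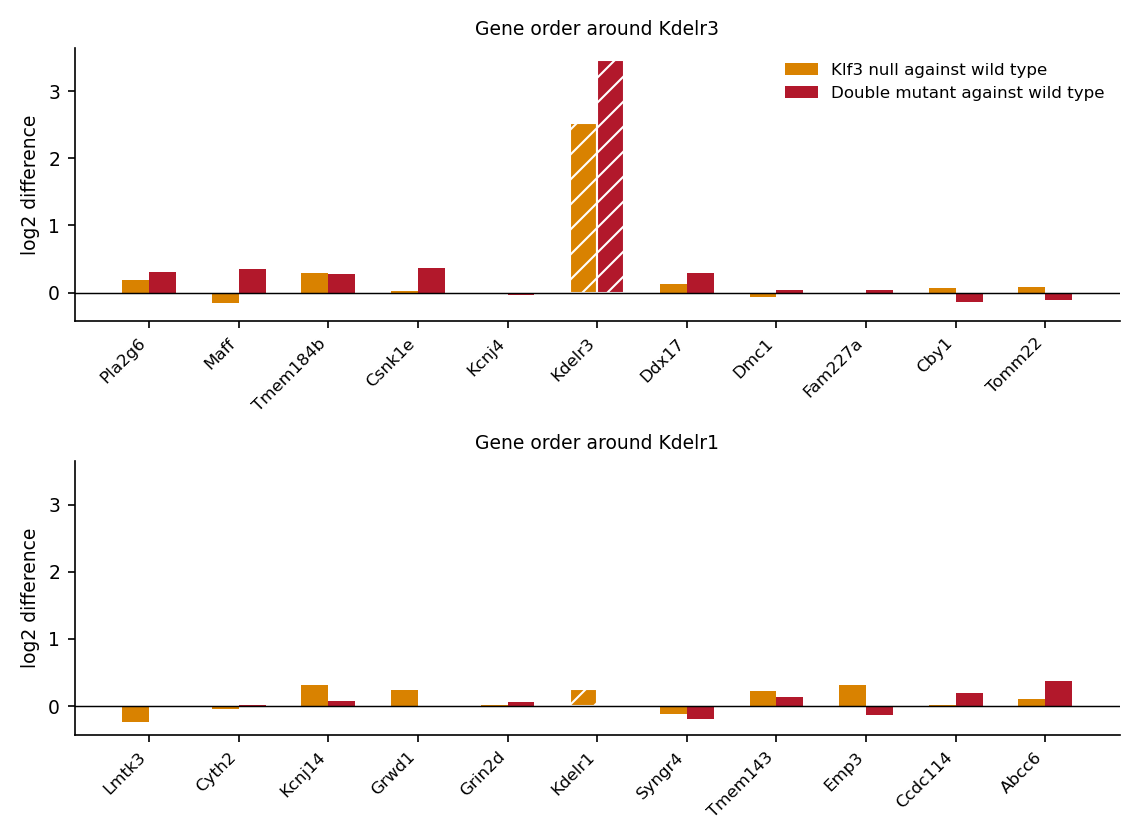
Log2 difference from wild type of Kdelr3 and Kdelr1 (hatched bars) and of their 5 measured neighbours on each side in RefSeq gene order (evenly spaced, not to scale), in the labelled Klf3 null (orange) and the double mutant (red). Kdelr3 stands at 2.53 and 3.46 and none of its 10 neighbours exceeds 0.37.

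The machinery that KDEL receptors work with, and genes related to the receptors only by fold, were covered by 7 lists. They held 137 genes, 132 of them measured. These were 40 genes listed as soluble ER residents with a KDEL-type C terminus (clients), whose C termini were not checked against protein sequences. With them were 24 COPI and p24 genes, and 18 tethers, SNAREs and other retrieval receptors. There were also 15 COPII genes, 22 genes of the unfolded protein response, 7 signalling partners and 6 relatives with a PQ-loop fold. In the labelled Klf3 null against wild type, 1 of the 132 was called, against 0.585% of all clusters. It was not a client or a coat gene but Pqlc3, a PQ-loop gene whose family shares a transporter-like fold with the KDEL receptors. Pqlc3 read 7.86, 7.90, 8.01 and 7.39 in wild type and 11.96, 11.93 and 11.62 in the labelled Klf3 null. Its groups were far apart, with a rise of 4.04 ± 0.22 (SE; adjusted p = 1.04e-07, limma), and all 24 alternatives kept the call. The lists were chosen with earlier results of these data known, so the calls of Pqlc3 here and below describe it and are not independent tests.

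Clients were on the whole slightly above wild type in the labelled Klf3 null, with a median difference of 0.18 against -0.01 over all clusters, and 0 of 40 were called (4 at an unadjusted p below 0.05, all higher, where 4.42% of all clusters were). Hspa5 averaged 12.54 ± 0.07 in wild type and 12.62 ± 0.13 in the labelled Klf3 null. Hsp90b1, which encodes GRP94, averaged 12.47 ± 0.15 and 12.64 ± 0.07, and Calr, the calreticulin gene, 12.28 ± 0.08 and 12.33 ± 0.06. The differences were 0.08, 0.17 and 0.05. None of the COPI, tether, COPII, unfolded protein response or signalling genes was called either, with list medians of -0.01 to 0.09. Ddit3, the stress gene CHOP, was 8.42 ± 0.18 in wild type and 8.24 ± 0.28 in the labelled Klf3 null, and Xbp1, a transcription factor of the response, 9.63 ± 0.16 and 9.83 ± 0.06.

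In the double mutant, where Kdelr3 was highest, 2 of the 132 pathway genes were called against wild type, beside 3.3% of all clusters. Pqlc3 rose by 4.01 ± 0.21 (adjusted p = 2.51e-08, limma). Rcn1, a calcium-binding client of the ER lumen, read 8.94, 8.77, 9.49 and 8.88 in the double mutant and 8.14, 8.18, 8.32 and 8.54 in wild type. The groups did not overlap, and Rcn1 rose by 0.73 ± 0.16 (adjusted p = 0.0175, limma). Some stromal markers were also higher in this comparison. Col1a1 and Col1a2, which encode the chains of type I collagen, rose by 0.86 ± 0.16 (adjusted p = 0.00793, limma) and 0.58 ± 0.13 (adjusted p = 0.0245, limma). They were the 2 of 10 stromal markers called, beside 3.3% of all clusters, and the lowest of the 10 was Lum, at -0.40. At an unadjusted p below 0.05, 4 of the 10 were higher and 0 lower, beside 17.9% of all clusters in either direction. The list median was 0.17 against -0.02 over all clusters. The stromal mean was 8.67, 8.65, 8.72 and 8.41 in the double-mutant arrays and 8.30 to 8.49 in wild type, so that replicate 3 was highest for both it and Rcn1. The part of stromal cells in the Rcn1 value was not tested. The call for Rcn1 was lost without wild-type replicate 1, 2 or 3 and with the macrophage covariate, with an adjusted p of 0.00682 to 0.187 over the alternatives. The list of 40 clients had a median difference of 0.07 against -0.02 over all clusters, with 2 of the 40 at an unadjusted p below 0.05, 1 higher and 1 lower, where 17.9% of all clusters were past that level. Hspa5 was 12.56 ± 0.24, Hsp90b1 12.66 ± 0.41 and Calr 12.33 ± 0.24, each lowest in replicate 1, and Pdia4, a disulfide isomerase, ranged from 9.71 in that replicate to 11.08. Copa, the alpha subunit of the COPI coat, averaged 10.57 ± 0.30 against 10.46 ± 0.16 in wild type, and Sec23b, a COPII subunit needed in human erythroid cells, 9.75 ± 0.23 against 9.92 ± 0.06.

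**Figure D5:**
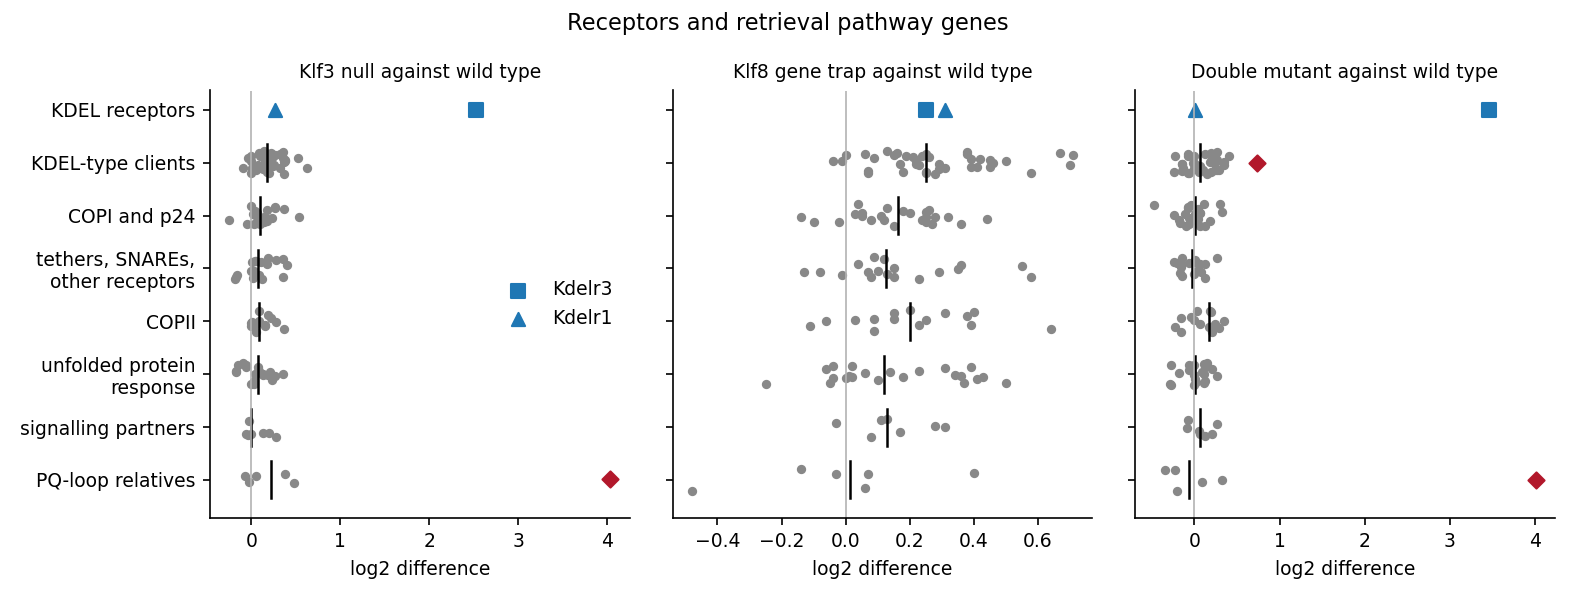
Log2 difference from wild type of the measured KDEL receptors (blue) and of each gene of the 7 pathway lists (grey points, jittered vertically; red diamonds for genes past an adjusted p of 0.05; black ticks for list medians) in 3 mutant genotypes. The horizontal scale differs between panels. Only Pqlc3 (4.04 and 4.01) and Rcn1 (0.73) are called, and the clients have their highest median, 0.25, in the Klf8 trap.

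In the Klf8 trap against wild type none of the 132 pathway genes was called (limma), as was no cluster at all (0%), while 39 were past an unadjusted p of 0.05, 38 of them higher. Among all clusters 13.4% were past that level, with 7.16% higher. Clients made up 18 of the 38, and the median client difference was 0.25 against -0.02 over all clusters. Pdia4 averaged 10.96 ± 0.42 against 10.30 ± 0.20 in wild type, Pdia6 11.97 ± 0.33 against 11.51 ± 0.16, and Hsp90b1 12.86 ± 0.25 against 12.47 ± 0.15. In each of them Klf8-trap replicate 1 lay within the wild-type range and the other 3 replicates above all 4 wild-type arrays. Hepatocyte markers moved with the clients. Of 11 hepatocyte markers 10 were higher at an unadjusted p below 0.05, with a median of 0.63, and the list mean was 12.09 in Klf8-trap replicate 1 and 12.60 to 12.77 in the others, against 11.70 to 12.10 in wild type. The client mean was 8.83 in replicate 1 and 9.17 to 9.28 in the others, against 8.73 to 8.92. The part of hepatocytes in the client values was not tested. Without Klf8-trap replicate 1, 18 pathway genes were called beside 7.19% of all clusters, among them Pdia4 (0.87, adjusted p = 0.0477) and Xbp1 (0.46, adjusted p = 0.0437), while Kdelr3 was 0.32 and Kdelr1 0.41 above wild type.

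Against the labelled Klf3 null, the double mutant had 0 pathway genes called, beside 0.047% of all clusters, and 14 at an unadjusted p below 0.05, of which 12 were lower. Of all clusters 12.9% were past that level, with 7.58% lower. The client median was -0.08 against -0.02 over all clusters. Kdelr3 was higher here by 0.92 while Pqlc3 was 11.84 ± 0.19 and 11.80 ± 0.45 in these groups. Against the Klf8 trap, 3 pathway genes were called in the double mutant, beside 3.35% of all clusters, and 47 were past an unadjusted p of 0.05, 43 of them lower, beside 18.7% of all clusters (11.3% lower). Pqlc3 rose by 4.15 (adjusted p = 2.26e-08, limma), and Slc66a2, another PQ-loop gene, rose by 0.82 (adjusted p = 0.0118), a call lost with the macrophage covariate (0.58, adjusted p = 0.221). Sdf2, a client that works with BiP, fell by 0.39 (adjusted p = 0.0448), a call kept in 9 of 24 alternatives. With the replicate block, 7 were called beside 4.03% of all clusters: these 3 with Rcn1, Arfgap3, Tmed5 and Dnajc3. Without double-mutant replicate 4, 25 were called beside 7.59% of all clusters, and without Klf8-trap replicate 1, 14 beside 7.44%. The interaction of both genotypes had 0 pathway genes called, beside 0.00427% of all clusters, and 41 at an unadjusted p below 0.05, beside 14.4% (8.79% lower). All 41 were lower, as Kdelr1 was and Kdelr3 was not, with a client median of -0.36 against 0.00 over all clusters. Of 11 hepatocyte markers, 7 were lower at the same level, with a median of -0.97, and their part in this was not tested. These comparisons share groups of arrays, so their lists are not independent of each other.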

How the data were processed

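The log2 values were deposited by the authors, 1 per transcript cluster and array, and the submitters' processing notes name RMA and Partek, without versions. The values carry no detection call. RMA brings arrays to a common distribution, which hides any change in total RNA per cell. The genome build of the array was not given in the sources used here. Of 35556 clusters, 21789 had 1 gene symbol, 1621 several and 12146 none. The 23410 with a symbol were tested, and a gene with several clusters was represented by the one with the highest mean.

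One model of 4 genotype means, over all 15 arrays together, was run in limma 3.58.1 under R 4.3.3 (eBayes, no trend, two-sided), and p-values were adjusted by Benjamini-Hochberg over all 23410 clusters in each of 6 contrasts, with a threshold of 0.05. Standard errors of the receptors come from the same fit. The fit was tested on simulated data. No batch is given in the labels. Precision is limited by the number of arrays (median SE 0.11, 0.12 for differences with the group of 3, and 0.16 for the interaction). Named genes were the receptors, Klf3 and Klf8, pathway or neighbouring genes past the threshold, 9 fixed examples and the 8 genes closest to Kdelr3 (1 Riken clone skipped). Marker genes are named only to describe the arrays. The members, lists and rules were chosen with earlier results of these data known. Same-numbered Klf8-trap and double-mutant arrays deviated together (correlations of 0.534, 0.114, 0.158 and 0.18), which no label explains, and no other pair of groups had every correlation above 0.1. There were 24 alternatives, 15 of which left out 1 array each.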

Additional observations from a re-analysis of the deposited data

Results flagged for a closer look

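In groups of 4 arrays, 78 sets of values were examined for a single array far from the others, and chance alone is known to mark about 1 in 20. Klf8-trap replicate 1 stood low for 4 pathway genes: Rcn1 read 8.08 there and 8.57 to 8.63 in the other replicates, Hsp90b1 read 12.48 against 12.97 to 13.00, Calr read 12.30 against 12.56 to 12.59, and Copa read 10.28 against 10.75 to 10.84. The PQ-loop gene Slc66a2 stood high in wild-type replicate 4, at 8.80 against 8.49 to 8.51. Neither Kdelr1 nor Kdelr3 had such an array in any group of 4.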

How the results depend on the processing

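Kdelr3 kept the sign of its differences in each of the 21 alternatives run for it, between 2.42 and 2.68 for Klf3 null against wild type and between 3.13 (macrophage covariate) and 3.62 for double mutant against wild type. Kdelr1 moved with the macrophage covariate to 0.43, 0.50, 0.07 and 0.05, in the order Klf3 null against wild type, double mutant against wild type, double mutant against Klf3 null and double mutant against Klf8 gene trap, which turned the sign of the last 2; without double-mutant replicate 4 its difference from wild type was -0.15. Counts of called pathway genes, given with the share of all clusters called in the same setting, depended more on the setting. For Klf3 null against wild type, 1 became 3 with array weights (2.55%), 3 without double-mutant 1 and Klf8-trap 1 together (1.26%), and 1 to 2 leaving out single arrays (2 without double-mutant 1, 0.739%). For Klf8 gene trap against wild type, 0 became 61 with array weights (17.4%), 9 with the macrophage covariate (1.89%), 49 without both arrays (12.5%) and 0 to 18 leaving out single arrays (18 without Klf8-trap 1, 7.19%). For double mutant against wild type, 2 became 1 with the covariate (1.58%), 19 without both arrays (9.65%) and 1 to 6 leaving out single arrays, with 6 without double-mutant 1 (5.93%) or 4 (4.82%). For double mutant against Klf3 null, 0 became 0 to 3 leaving out single arrays, 3 without double-mutant 4 (2.07%). For double mutant against Klf8 gene trap, 3 became 7 with the replicate block (4.03%), 12 with array weights (5.47%), 1 with the covariate (1.05%), 5 with the low-signal filter (7.34% of fewer clusters), 7 without both arrays (5.32%) and 2 to 25 leaving out single arrays (25 without double-mutant 4, 7.59%). For the interaction of both genotypes, 0 became 21 with array weights (5.05%), 11 without both arrays (3.19%) and 0 to 8 leaving out single arrays, 8 without Klf8-trap 1 (3.07%) and 7 without double-mutant 4 (1.65%). The causes were not tested. The replicate block left Kdelr3 at 3.20 and Kdelr1 at -0.30 between double mutant and Klf8 gene trap. Dim signals limit the size of the Kdelr3 difference.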
